A study of Rattus norvegicus with 12 samples.

Results

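The nuclear genes for subunits of the mitochondrial respiratory chain and the ATP synthase were followed across 12 RNA-seq libraries of rat H9c2 cells. Members were protein-coding genes whose symbol names a subunit of complex I (Ndufa, Ndufb, Ndufc, Ndufs or Ndufv with a number), complex II (Sdha to Sdhd), complex III (Uqcr genes and Cyc1), complex IV (Cox4 to Cox8 genes) or complex V (Atp5 genes), kept where the 12 libraries averaged 1 TPM or more. This gave 83 of the 30562 genes in the table, 37 in complex I, 4 in complex II, 8 in complex III, 16 in complex IV and 18 in complex V. Ndufa4 and Ndufa4l2 were described with complex IV, where the Ndufa4 protein is found. The symbols matched 115 loci, of which 6 were not protein coding and 26 had a mean under 1 TPM, 20 of these at 0 in every library. Just inside the limit lay Ndufa4l2 at 1.37 TPM and Cox7a1 at 1.66 TPM, and just outside it Cox7a2l2 at 0.448 TPM and Ndufb4l3 at 0.126 TPM. TPM is a level per transcript length within 1 library, so levels of different genes can be set side by side.

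H9c2 is a myoblast line derived from embryonic rat heart, and the labels call the cells cardiomyocytes. The 4 groups, with 3 libraries each, were control cells, cells treated with MMA, with folic acid (FA) or with the combination (MMA+FA). The series title names methylmalonic acid, and its question is how folate and methylmalonic acid act apart and together. Doses, exposure times and the control's vehicle are not given in the labels, nor whether the 3 libraries of a group are separate cultures, so p-values measure the spread between these libraries, which may be technical. Of 14 cardiomyocyte markers 4 reached a mean of 1 TPM (Tnnt2, Nkx2-5, Gata4 and Cox6a2, itself a member), and Myl3 was listed at 0, while 4 of 8 skeletal myoblast markers and 6 of 9 fibroblast and mesenchymal markers did, 1 of 6 leukocyte markers, 1 of 5 epithelial markers and 0 of 6 endothelial markers. No 2 libraries held identical values, and correlations of log2(TPM + 1) within a group ran from 0.9874 to 0.9925. Read counts were not used here, so the depth behind each value is unknown. In bulk RNA, fewer cells of a type and less RNA per cell cannot be told apart.

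The respiratory chain sits in the inner mitochondrial membrane and passes electrons from NADH (complex I) and succinate (complex II) by way of ubiquinone, complex III, cytochrome c and complex IV to oxygen. Complexes I, III and IV pump protons, and complex V, the ATP synthase, uses the proton gradient to make ATP. All of complex II and most subunits of the others are encoded in the nucleus, where binding sites for NRF1, ETS family factors such as GABP, YY1 and ERR factors are known in many of their promoters, while the catalytic cores of complexes I, III and IV also hold subunits encoded by mitochondrial DNA. Heart is rich in these transcripts, and several complex IV subunits have a separate isoform for heart and skeletal muscle.

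The promoters, where such binding sites lie, were read for all members with an entry in RefSeq (build GRCr8), which gave 69 of the 81 distinct member symbols. Each window ran from 250 bases before to 50 bases after the annotated start. The letters searched, on both strands, were GCGCATGC for NRF1, CCGGAAG for ETS factors, YY1's AAGATGGCG, GGGCGGGG for SP1 and TCAAGGTCA for ERR. None is contained in another, but the ETS letters end and the YY1 letters begin with AAG, so the same bases can count for both. The ETS letters stood in 20 member windows (29.0%, against 8.77% of all 33365 windows of the same length). The YY1 letters stood in 10 (14.5% against 1.74%), the NRF1 letters in 8 (11.6% against 2.48%) and the ERR letters in 2 (2.90% against 0.435%). The SP1 letters were found in 6 windows, a share of 8.70% against 15.3%. At least 1 of the 5 motifs stood in 35 member windows (50.7% against 24.8%). Median GC content was 56.0% in the member windows and 51.7% in all windows, and its part in these shares was not tested. The windows compared were not limited to genes expressed in these cells, as the members are. The shares are thus not shown to be particular to respiratory genes. The YY1 letters lay after the start, in the sense direction, in 8 of the 10 member windows, and in 265 of the 580 windows of any gene that hold them. A match is a description of letters, not evidence of binding. The promoters of 4 members whose transcripts are described below follow, 5′ to 3′ on the gene's strand, with matches in capitals. Cox6a2 (chr1:192219667-192219966, minus strand) had no match, Cox5b (chr9:46417587-46417886, plus strand) had the ETS letters starting 14 bases before the start, Atp5mf (chr12:14535185-14535484, plus strand) the YY1 letters starting at base 37 of the transcript, and Ndufs1 (chr9:72073556-72073855, minus strand) the reverse complement of the ETS letters starting 199 bases before the start.
Cox6a2: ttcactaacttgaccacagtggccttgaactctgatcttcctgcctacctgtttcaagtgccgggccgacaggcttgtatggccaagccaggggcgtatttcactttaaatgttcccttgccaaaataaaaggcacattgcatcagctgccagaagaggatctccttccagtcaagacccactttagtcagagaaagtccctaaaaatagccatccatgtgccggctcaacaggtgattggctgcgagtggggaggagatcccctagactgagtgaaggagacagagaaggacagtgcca
Cox5b: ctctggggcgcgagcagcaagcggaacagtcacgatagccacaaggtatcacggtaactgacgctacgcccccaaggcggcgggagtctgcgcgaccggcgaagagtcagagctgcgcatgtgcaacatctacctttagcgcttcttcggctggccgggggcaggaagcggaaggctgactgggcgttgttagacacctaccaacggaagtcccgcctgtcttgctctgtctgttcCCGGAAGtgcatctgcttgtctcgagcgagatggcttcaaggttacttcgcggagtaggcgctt
Atp5mf: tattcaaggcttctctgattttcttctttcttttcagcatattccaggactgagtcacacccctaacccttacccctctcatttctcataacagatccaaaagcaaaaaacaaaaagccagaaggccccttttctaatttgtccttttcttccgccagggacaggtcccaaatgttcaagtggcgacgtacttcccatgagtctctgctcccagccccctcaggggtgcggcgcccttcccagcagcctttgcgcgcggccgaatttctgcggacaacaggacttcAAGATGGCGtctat
Ndufs1: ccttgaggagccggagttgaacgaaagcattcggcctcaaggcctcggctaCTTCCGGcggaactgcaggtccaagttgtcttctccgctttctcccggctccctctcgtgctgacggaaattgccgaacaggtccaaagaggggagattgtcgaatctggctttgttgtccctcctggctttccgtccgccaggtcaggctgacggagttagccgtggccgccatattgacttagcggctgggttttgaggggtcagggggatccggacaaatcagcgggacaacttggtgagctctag

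Summed over the 83 members, transcripts of these subunits made up 2.06%, 2.10% and 2.08% of all TPM in the control libraries, 2.04%, 2.06% and 2.05% with MMA, 1.95%, 2.03% and 1.88% with FA, and 2.05%, 2.07% and 2.07% with MMA+FA. All 3 FA libraries lay below the 9 others, and FA replicate 2 lay closest to them. The nearest to FA replicate 2 (20261.9 TPM) was MMA replicate 1 (20360.6 TPM), whose sum holds 105.2 TPM of Atp5mk. Atp5mk was at 0 in all FA libraries, so the order of these 2 libraries rests on that locus. In TPM the sum was 20800.3 ± 203 in the control libraries (mean ± SD, n = 3), 20470.1 ± 108.5 in the MMA libraries, 19517 ± 717 in the FA libraries and 20653 ± 103 in the MMA+FA libraries. As a percentage of the control mean, the FA group stood at 93.4 for complex I, 93.8 for complex II, 93.2 for complex III, 91.9 for complex IV and 96.1 for complex V. The FA libraries of complexes I, II, III and IV did not overlap the control libraries, while in complex V they ran from 94.0% to 98.5% against 98.6% to 102.8%, nearly meeting them. The complex V sum holds Atp5mk, at 292 TPM in control replicate 2 and 0 in the other control and all FA libraries. Sums without that locus were not computed, so a separation of FA from control in complex V is not shown apart from it. With MMA+FA the same sums were 99.8%, 96.8%, 95.8%, 99.3% and 100.1% of the control mean, so that complexes I, IV and V lay near control and complexes II and III between FA and control. FA replicate 2 was the highest FA library for 57 of the 83 members and FA replicate 3 the lowest for 47. No test was made on these sums, which weigh abundant genes most.

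**Figure D1:**
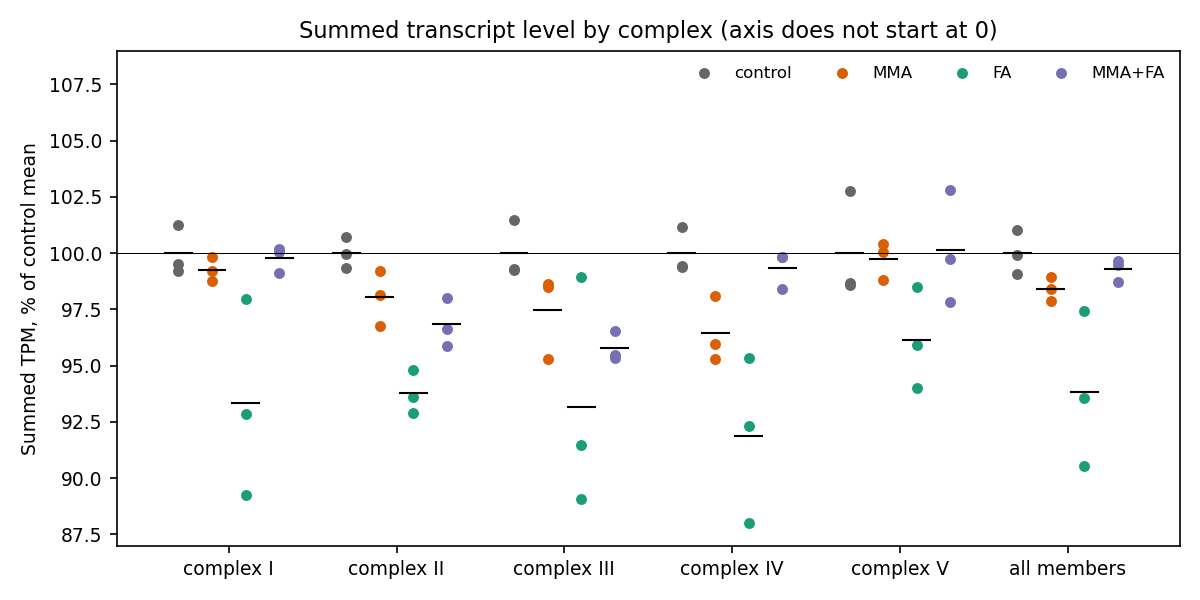
Summed TPM of the member genes of each complex and of all 83 members, as a percentage of the control mean (the axis does not start at 0), with 1 point per library and a bar at the group mean. The FA mean is the lowest in every complex and the FA libraries run from 88.0% to 98.9%, lying below all others in complexes I and II and overlapping MMA or MMA+FA libraries in complexes III, IV and V. Atp5me and Atp5mk, at 0 in some libraries, are kept in the sums of complex V and of all members.

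TPM is a share of the library, so a change in other transcripts moves every member. Each library was also rescaled by the median ratio of its genes to their mean over libraries, called median-ratio scaling here. The mean sums were then 19888 TPM in control, 20667 in the MMA group, 19308 in the FA group and 21517 in the MMA+FA group. The means with MMA and MMA+FA thus lay above control and the FA mean below it. On this scale the FA libraries, at 19303, 20096 and 18525 TPM, overlapped the control libraries, at 19721, 20199 and 19743.5 TPM. In the deposited TPM the median of all tested genes differed from control by -0.07 in the MMA group, -0.05 in the FA group and -0.12 in the MMA+FA group on the log2(TPM + 1) scale, the scale of all differences below. On that scale the members' own medians were -0.01, -0.10 and -0.02. Relative to the median gene, members thus stood higher with MMA and with MMA+FA and lower with FA. Fibroblast and mesenchymal markers moved with the FA group: their summed TPM was 8154 to 8858 in control and 9641 to 11162 with FA, with 8451 to 9524 with MMA and 8331 to 9856 with MMA+FA. Epithelial markers, mainly Krt8, did so at a low level, with sums of 19.8 to 21.99 TPM in control, 24.7 to 26.1 with MMA, 30.1 to 33.0 with FA and 26.8 to 33.9 with MMA+FA. The part of these markers in the members' levels was not tested.

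A gene counts as called, or as risen or fallen, where its limma p, adjusted by Benjamini-Hochberg over all 12263 genes tested, was under 0.05. With MMA, 3 members rose (3.85% of all tested genes were called higher) and 1 fell (16.5% were called lower). Under median-ratio scaling the counts were 9 higher and 0 lower, beside 8.16% and 6.91% of all genes, with 14 members at an unadjusted p under 0.05 in the deposited scale. The 3 that rose were Ndufa3, Sdhd and Atp5f1a, and the 1 that fell was the copy locus Ndufv3-ps1. Leaving out 1 library at a time gave 0 to 3 higher and 0 or 1 lower. Of all tested genes 1.81% to 2.76% were called higher and 7.64% to 13.1% lower in these fits. Each of the 4 calls was lost without at least 1 library, at limma adjusted p = 0.0519 to 0.156.

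With FA, 13 members fell, 15.7% of them (8.7% of all tested genes were called lower), and none rose in limma (3.67% were called higher), with 37 members at an unadjusted p under 0.05. Those that fell were Ndufs1, Ndufb6, Ndufb10, Ndufb11 and Ndufs5-ps2 of complex I, Sdhc of complex II, Uqcrh of complex III, Cox5b, Cox6a1 and Cox6a2 of complex IV, and Atp5if1, Atp5mg and Atp5pd of complex V. Group means were lower than control for 70 of the 83 members (84.3%), and for 62.3% of all tested genes. Under median-ratio scaling 3 of the 13 kept their call (Cox5b, Cox6a2 and Atp5if1), beside 3.88% of all genes called lower, and 4 members were called higher, beside 5.78%. The count rested on single libraries: leaving out FA replicate 2 gave 32 lower and 3 higher (7.02% of all genes were called higher), leaving out FA replicates 1 and 3 in turn gave 3 and 2 lower, and it was 5, 8 and 4 without control replicates 1, 2 and 3. The share of all tested genes called lower moved with it, to 13.9% without FA replicate 2 (38.6% of members), 1.79% without FA replicate 1 (3.61%) and 3.56% without FA replicate 3 (2.41%), so without FA replicate 3 the members' share lay below that of all genes. Without control replicates 1, 2 and 3 it was 3.42%, 4.18% and 1.17%, beside 6.02%, 9.64% and 4.82% of members. A fit of the FA and control groups alone called 3 members lower (3.61%, beside 3.34% of all genes). Cox5b and Atp5if1 kept their calls without any 1 library, and the other 11 lost them without at least 1, at adjusted p = 0.0552 to 0.161.

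With MMA+FA against control, 7 members rose (6.67% of all tested genes were called higher) and 6 fell (32.6% were called lower). Ndufa3, Ndufa7, Ndufa8 and Ndufs3 of complex I, Sdha, Atp5f1a and Atp5mf rose, while Ndufs1, Ndufv2, Sdhb, Cox6a2, Cox7a2l and Atp5if1 fell. Under median-ratio scaling 25 members were called higher, 30.1% beside 15.5% of all genes, and 1 lower (Cox6a2), beside 13.9%, so the balance between directions depends on the scaling. Of the 13 calls, 6 held without any 1 library (Ndufa8, Ndufs1, Cox6a2, Atp5f1a, Atp5if1 and Atp5mf), and the other 7 lost theirs at adjusted p = 0.0503 to 0.172. Without MMA+FA replicate 1 there were 3 higher (3.61%, beside 5.17% of all genes). Without MMA+FA replicate 3 there were 3 lower (3.61%, beside 28.5% of all genes). These were the smallest counts.

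**Figure D2:**
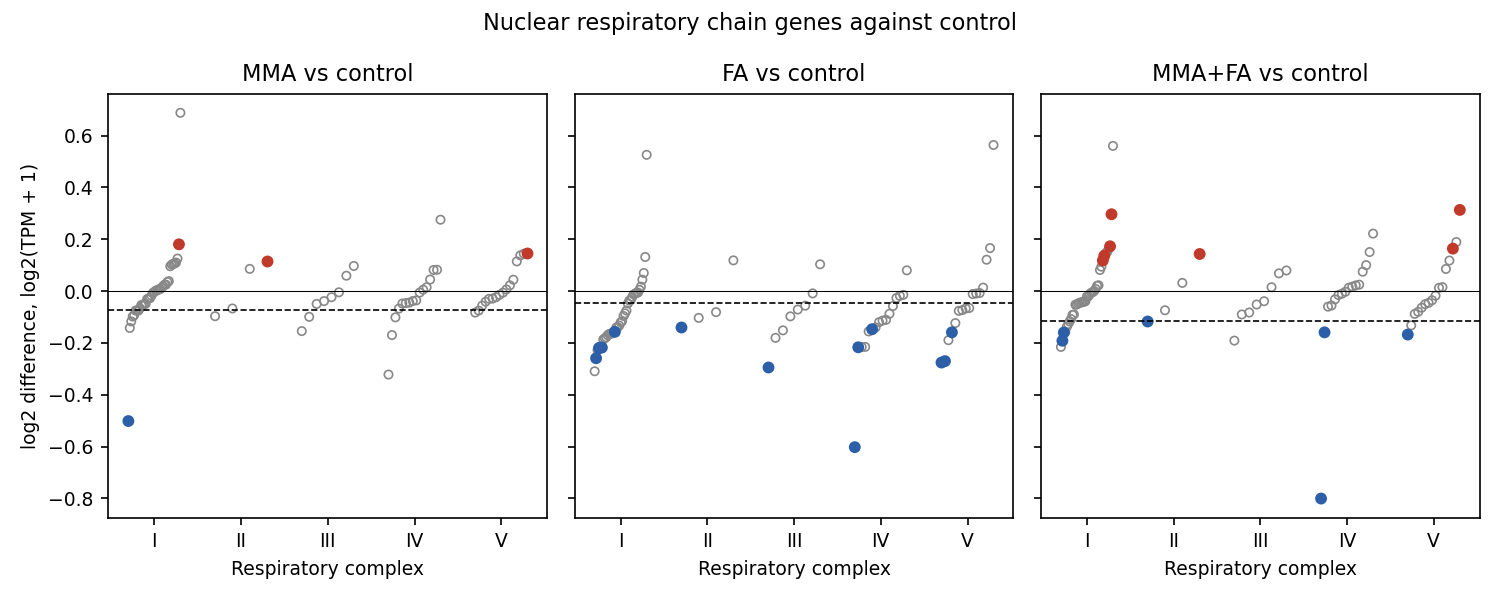
Difference of each member from control on the log2(TPM + 1) scale, sorted within complexes I to V, with filled points for called members (red higher, blue lower) and a dashed line at the median of all tested genes. Atp5me and Atp5mk, at 0 in some libraries, are left out, and Cox6a2 is the lowest point with FA (-0.60) and with MMA+FA (-0.80).

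Complex I members were split between directions. Ndufa3, an accessory subunit of the membrane arm, was at 162, 170 and 167 TPM in the control libraries, 179.8, 191 and 195 with MMA, 147, 157 and 155 with FA, and 199, 183 and 181 with MMA+FA. All 6 libraries with MMA lay above all 6 without it. The difference was 0.18 for MMA against control (SE 0.0466, limma adjusted p = 0.0187), 0.17 for MMA+FA against control (adjusted p = 0.0116) and 0.29 for MMA+FA against FA (adjusted p = 0.00602). The last of these held without any 1 library, at up to adjusted p = 0.032. MMA against control lost its call without control replicate 1, control replicate 3, MMA replicate 2 and MMA replicate 3 (0.0519 to 0.0760), and MMA+FA against control without MMA+FA replicate 1 (0.0503).

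Ndufa8, an accessory subunit that faces the intermembrane space, stood at 109.2, 117 and 108 TPM in control, 119.8, 117 and 128 with MMA, 127, 121 and 119 with FA, and 136, 133 and 142 with MMA+FA. The MMA+FA libraries lay above all 9 others, and the groups with 1 compound lay between them and control. Against control the difference with MMA+FA was 0.30 (SE 0.0473, adjusted p = 0.000636), and 0.42 under median-ratio scaling. With MMA alone and with FA alone it was 0.13 each (adjusted p = 0.0779 and 0.0847, limma). Against MMA it was 0.17 (adjusted p = 0.0321) and against FA 0.16 (adjusted p = 0.0457), calls that did not hold without MMA replicates 1 or 2 or MMA+FA replicates 1 or 3, and without any of the 6 libraries, in that order, at up to adjusted p = 0.135.

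Ndufs1, a core subunit that carries iron-sulfur clusters and whose promoter is printed above, was at 83.9, 86.2 and 82.3 TPM in control, 83.3, 78.7 and 77.6 with MMA, 75.4, 77.5 and 73.3 with FA, and 75.7, 71.9 and 73.1 with MMA+FA. Both groups with FA lay below control without overlap. The difference was -0.16 with FA (SE 0.0416, adjusted p = 0.0315) and -0.19 with MMA+FA (adjusted p = 0.00378). Under median-ratio scaling these were -0.11 (adjusted p = 0.10) and -0.07 (adjusted p = 0.212), so neither call held relative to the median gene. The FA call was also lost without any 1 of the 3 control libraries, FA replicate 1 or FA replicate 3, at up to adjusted p = 0.0982. Among the other core subunits, Ndufs3 rose by 0.14 with MMA+FA (adjusted p = 0.0299) and Ndufv2, of the NADH-oxidising module, fell by 0.16 (adjusted p = 0.0320), a difference of -0.04 under median-ratio scaling.

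Ndufb6, Ndufb10 and Ndufb11, accessory subunits of the membrane arm, fell with FA by 0.22, 0.22 and 0.26 (adjusted p = 0.020, 0.0311 and 0.0277). None of these 3 calls held under median-ratio scaling, where adjusted p was 0.0706, 0.105 and 0.0571. Ndufb6 stood at 190.1, 180.2 and 182 TPM in control, 179.8, 177 and 183 with MMA, 151, 173 and 150.2 with FA, and 177, 181 and 176 with MMA+FA. The FA libraries were the lowest 3 of the 12, with FA replicate 2 nearest to the rest. Ndufb6 was higher with MMA+FA than with FA by 0.17 (adjusted p = 0.0472). Ndufs6, an accessory subunit of the peripheral arm, was at 58.6, 60.1 and 62.0 TPM with MMA and at 47.3, 53.6 and 52.4 with MMA+FA, with 55.1, 56.1 and 56.5 in control and 53.2, 61.1 and 51.1 with FA. It was lower with MMA+FA than with MMA by 0.23 on the log2 scale (difference -0.23, SE 0.0645, adjusted p = 0.0316), a call lost without any MMA library and without MMA+FA replicates 1 and 3 (up to 0.117) and under median-ratio scaling (0.0999). The locus named as its copy, Ndufs6-ps1, held 60.1% to 62.0% of the TPM of both loci with MMA and 65.6% to 68.5% with MMA+FA. Both loci together summed to 155 ± 4.78 TPM with MMA and 157 ± 17.3 with MMA+FA (mean ± SD, n = 3). Reads may be split between such copies, so the value of Ndufs6 alone is uncertain. Ndufb4, an accessory subunit and the most abundant complex I member, ranged from 688 TPM in FA replicate 3 to 876 TPM in control replicate 3.

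Complex II, succinate dehydrogenase, showed differences of at most 0.14 on the log2 scale in the members called. Sdhc, a membrane anchor, stood at 198, 204 and 207 TPM in control, 196, 189 and 196 with MMA, 185, 184 and 183 with FA, and 190.2, 197 and 191 with MMA+FA. The 3 FA libraries were the lowest of the 12. The FA difference was -0.14 (SE 0.0336, adjusted p = 0.0253), and -0.09 under median-ratio scaling (adjusted p = 0.155). It was lost without control replicates 2 or 3 and FA replicates 1 or 3 (up to 0.107). Sdhd, the other anchor, was at 73.4, 70.6 and 72.3 TPM in control, 79.1, 76.5 and 79.4 with MMA, 67.8, 68.4 and 68.0 with FA, and 73.7, 70.8 and 76.7 with MMA+FA. The MMA libraries lay above control and the FA libraries below it, and MMA+FA overlapped control. For MMA the difference was 0.12 (SE 0.0389, adjusted p = 0.0497), lost without any 1 of the 6 libraries (0.0661 to 0.145) and 0.20 under median-ratio scaling (adjusted p = 0.00634). Sdha, the flavoprotein that oxidises succinate, rose by 0.14 with MMA+FA (adjusted p = 0.0155). Sdhb, the iron-sulfur subunit, fell by 0.12 (adjusted p = 0.0481), with a difference of 0.01 under median-ratio scaling, the opposite sign.

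Of the 8 complex III members only Uqcrh was called in any comparison. Uqcrh, the hinge protein that helps bind cytochrome c1 to cytochrome c, stood at 169.8, 173 and 187 TPM in control, 158, 179 and 158 with MMA, 134, 159.5 and 139 with FA, and 163, 173 and 201 with MMA+FA. The FA libraries lay below all control and MMA+FA libraries, and FA replicate 2 overlapped the MMA group. FA differed from control by -0.29 (SE 0.0838, adjusted p = 0.0408), and MMA+FA from FA by 0.31 (adjusted p = 0.0381). The first call was lost without any control library, FA replicate 1 or FA replicate 3 (up to 0.154), the second without FA replicates 1 or 3 and MMA+FA replicates 2 or 3 (up to 0.126). Uqcrq, the most abundant member, was between 1051 and 1209 TPM in all libraries, and Uqcrc1, a core protein, between 113 and 129 TPM.

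The largest called differences from control were those of 1 complex IV member, Cox6a2. Cox6a2, the heart and skeletal muscle isoform of subunit 6a, was at 135, 132 and 129.8 TPM in the control libraries. It was at 119, 104 and 95.1 TPM with MMA and at 93.3, 83.6 and 83.7 TPM with FA. With MMA+FA it was at 75.6, 96.3 and 59.0 TPM. Every treated library lay below every control library, MMA and MMA+FA overlapped in 1 library (96.3 against 95.1 TPM), and MMA+FA replicates spread most. Against control the difference was -0.32 with MMA (SE 0.134, adjusted p = 0.105), -0.60 with FA (adjusted p = 0.0181) and -0.80 with MMA+FA (adjusted p = 0.000824). Under median-ratio scaling these were -0.24, -0.55 and -0.68, the last 2 still called (0.0308 and 0.00379). The MMA+FA call held without any 1 library, at up to 0.00454, while the FA call was lost without control replicate 1 (0.0552), control replicate 3 (0.0678) and FA replicate 3 (0.0602). MMA+FA was lower than MMA by 0.48 on the log2 scale (difference -0.48, adjusted p = 0.0336), which was lost under median-ratio scaling (0.0621) and without MMA replicates 1 or 2 or MMA+FA replicates 1 or 3 (up to 0.137). Against FA the MMA+FA difference was -0.20 (adjusted p = 0.342), and the interaction of MMA and FA was 0.12 (adjusted p = 0.781). Muscle markers moved in both directions beside it. Myod1, a myoblast transcription factor, stood at 72.7 ± 2.57 TPM in control and 31.7 ± 3.30 TPM with MMA+FA (SD, n = 3), and the summed TPM of its list of 8 skeletal myoblast markers was 91.4 to 101 in control, 80.2 to 84.3 with MMA, 78.7 to 95.2 with FA and 59.5 to 70.1 with MMA+FA. Without Myod1 the other 7 summed to 21.7 to 26.6 TPM in control, 21.2 to 23.3 with MMA, 31.4 to 34.0 with FA and 31.3 to 35.4 with MMA+FA, so both groups with FA lay above control. The same held for the cardiomyocyte markers other than Cox6a2, which summed to 32.2 to 38.2 TPM in control, 38.4 to 40.7 with MMA, 61.6 to 64.2 with FA and 84.3 to 104 with MMA+FA. Tnnt2, cardiac troponin T, made up most of this sum with MMA+FA, at 84.6, 67.5 and 68.7 TPM. In control it was at 15.02, 18.9 and 14.5 TPM, so the sum does not show that the other cardiomyocyte markers rose. The part of these markers in the Cox6a2 result was not tested.

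Cox6a1, the isoform of the same subunit found in most tissues, was far more abundant, at 1401, 1418 and 1327 TPM in control, 1268, 1301 and 1295 with MMA, 1215, 1294 and 1235 with FA, and 1381, 1344 and 1328 with MMA+FA. Control and MMA+FA overlapped, while MMA and FA libraries lay below both. With FA it fell by 0.15 (SE 0.0367, adjusted p = 0.0263), which was lost under median-ratio scaling (0.148) and without control replicates 1 or 2 and FA replicates 1 or 3 (up to 0.101). The interaction for Cox6a1 was 0.22 (SE 0.0519, adjusted p = 0.0502). The pair thus differed in the MMA+FA group, where Cox6a1 differed from control by -0.03 (adjusted p = 0.515) and Cox6a2 by -0.80, a contrast between genes that was not itself tested.

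Cox5b, a zinc-binding subunit whose promoter with its ETS letters is printed above, stood at 48.9, 46.8 and 46.4 TPM in control, 47.9, 45.7 and 44.0 with MMA, 41.0, 41.4 and 39.4 with FA, and 44.9, 46.2 and 45.4 with MMA+FA. The 3 FA libraries were the lowest of the 12 and did not overlap any other group. The FA difference from control was -0.22 (SE 0.0434, adjusted p = 0.0129), -0.17 under median-ratio scaling (0.0326), and held without any 1 library at up to adjusted p = 0.0473. MMA+FA was higher than FA by 0.16 (adjusted p = 0.0366, lost without FA replicates 1 or 3 or any MMA+FA library, up to 0.11), and its difference from control was -0.06 (adjusted p = 0.33). Cox5a, a subunit exposed to the matrix, was at 121, 115 and 124 TPM in control, 125, 131 and 126 with MMA, 111, 124 and 99.99 with FA, and 130.9, 130.6 and 139 with MMA+FA. FA overlapped control, and MMA+FA lay above both. MMA+FA was higher than FA by 0.26 (adjusted p = 0.0280), a call lost without FA replicates 1 or 3 or MMA+FA replicates 2 or 3 (up to 0.0882).

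The subunit 7a family shows the muscle isoform near the lower limit of the filter. Cox7a1, the heart and muscle isoform, lay between 1.27 and 2.36 TPM in all libraries and was called in no comparison. Cox7a2, the isoform of most tissues, was at 323, 308 and 304 TPM in control, 313, 287 and 307 with MMA, 303, 298 and 264 with FA, and 324, 334 and 344 with MMA+FA. MMA+FA lay above every FA library, by 0.21 on the log2 scale (adjusted p = 0.0297, lost without FA replicate 3 and MMA+FA replicates 2 or 3, up to 0.0898). Cox7a2l, which helps join complexes III and IV into supercomplexes, was at 409, 398 and 440.0 TPM in control, 409.6, 416 and 388 with MMA, 374, 407 and 351 with FA, and 366, 374 and 376 with MMA+FA. MMA+FA lay below control, by 0.16 on the log2 scale (difference -0.16, adjusted p = 0.0347), but by 0.04 under median-ratio scaling (difference -0.04, adjusted p = 0.661), and the call was lost without control replicates 1 or 3 or any MMA+FA library (up to 0.142). Cox7b was between 679 and 823 TPM and its relative Cox7b2, known from testis, between 3.32 and 6.88 TPM. Ndufa4 lay between 115 and 164 TPM, and its relative Ndufa4l2, known as a hypoxia-induced gene, between 1.00 and 2.05 TPM, highest in MMA replicate 1. None of these 4 genes was called in any comparison. Cox6c, the most abundant member of complex IV, ranged from 1555 TPM in FA replicate 3 to 1803 TPM in control replicate 2.

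**Figure D3:**
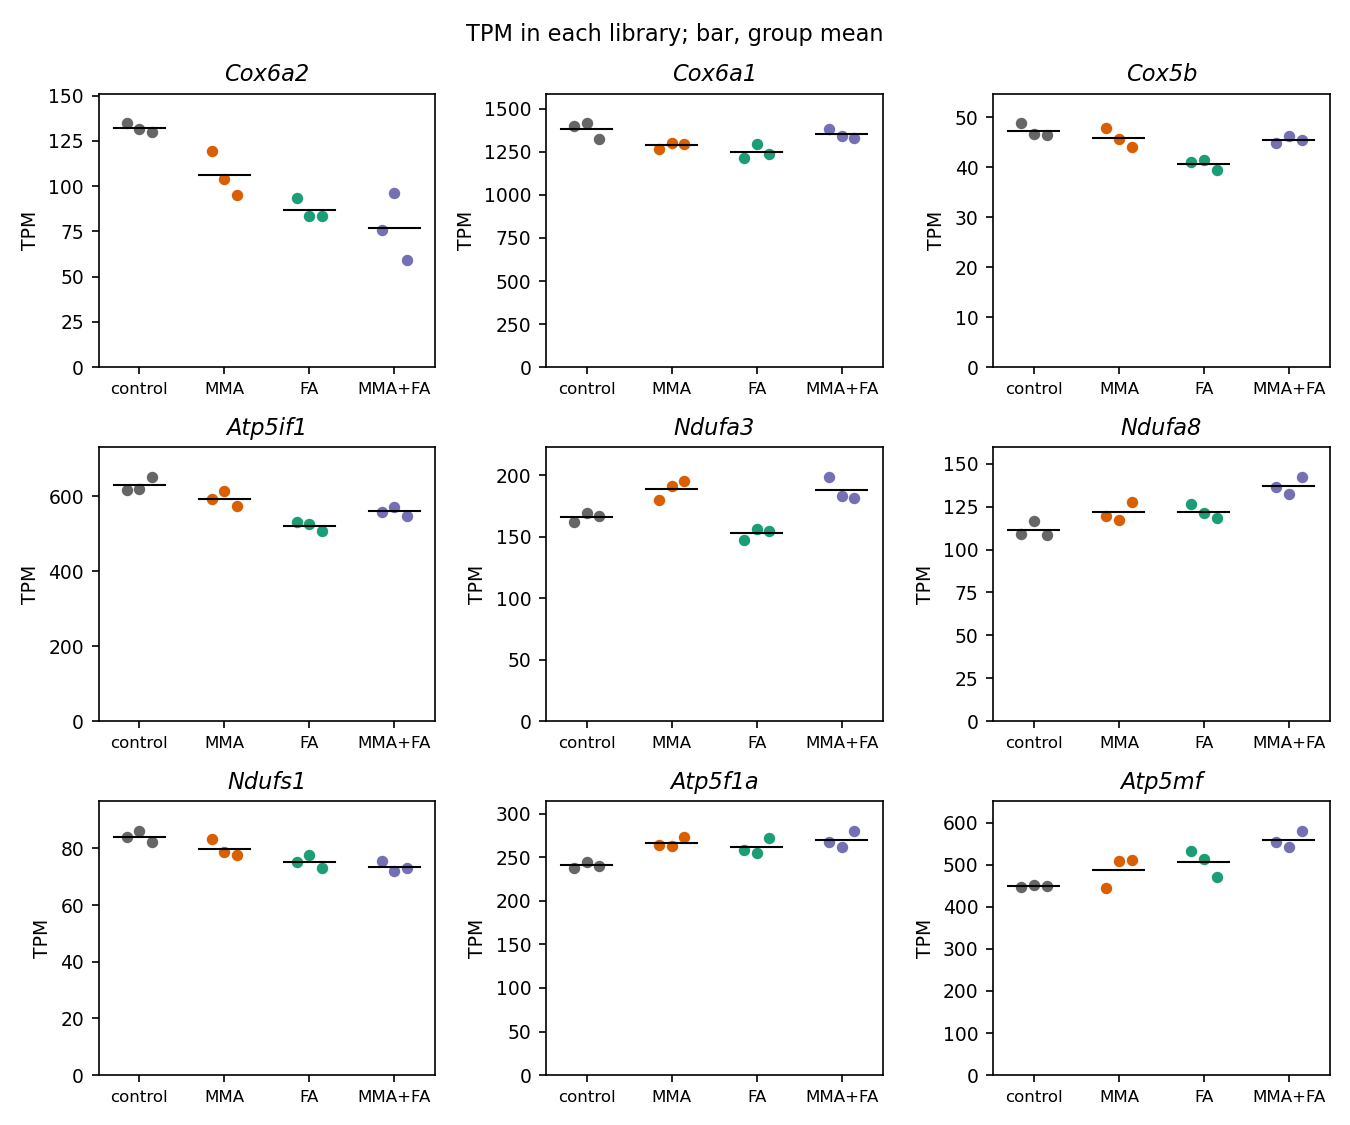
TPM of 9 members in each of the 12 libraries, with a bar at each group mean (axes start at 0). Cox6a2 lies lower in all treated libraries than in control, Cox5b and Atp5if1 are lowest with FA, Ndufa3 is higher in the 6 libraries with MMA, and Ndufa8 and Atp5mf are highest with MMA+FA.

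In complex V, Atp5if1, the inhibitory factor that blocks ATP hydrolysis by the synthase, had the smallest p of any member with FA. It was at 615, 619 and 651 TPM in control, 593, 613 and 574 with MMA, 532, 524 and 506 with FA, and 559, 571 and 548 with MMA+FA. The FA libraries were the lowest of the 12, MMA+FA came next, and neither overlapped control. The difference from control was -0.27 with FA (SE 0.0377, adjusted p = 0.00323) and -0.17 with MMA+FA (adjusted p = 0.00449), and both held without any 1 library, at up to 0.0224 and 0.0245. Under median-ratio scaling the FA difference was -0.22 (adjusted p = 0.00949) and the MMA+FA difference -0.04 (adjusted p = 0.443). The interaction was 0.19 (adjusted p = 0.0941).

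Atp5f1a, the alpha subunit of the F1 head, moved the other way, at 238, 244 and 239.5 TPM in control, 264, 263 and 273 with MMA, 258, 255 and 272 with FA, and 267, 261 and 280.2 with MMA+FA. All 9 treated libraries lay above the 3 control libraries and overlapped each other. It rose by 0.15 with MMA (SE 0.0382, adjusted p = 0.0184) and by 0.16 with MMA+FA (adjusted p = 0.00546), and the FA difference was 0.12 (adjusted p = 0.0569). The MMA call was lost without control replicates 1 or 3 and MMA replicate 3 (up to 0.0722), and the MMA+FA call held without any 1 library. Its partner in the head, the catalytic beta subunit Atp5f1b, was the most abundant member of complex V and varied 1.06-fold over the 12 libraries, from 1315 to 1397 TPM, and the central-stalk gamma subunit Atp5f1c 1.08-fold, from 233 to 252 TPM. Neither was called in any comparison.

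Atp5mf, the small membrane subunit f whose promoter with its YY1 letters is printed above, was at 447, 452 and 450.2 TPM in control, 444, 509 and 511 with MMA, 533, 513 and 469.9 with FA, and 555, 542 and 581 with MMA+FA. The MMA+FA libraries were the highest 3 of the 12, and MMA replicate 1 was the only treated library within the control range or below it. Against control the MMA+FA difference was 0.31 (SE 0.0581, adjusted p = 0.00151), 0.44 under median-ratio scaling, and held without any 1 library. It was 0.11 with MMA (adjusted p = 0.177), 0.17 with FA (adjusted p = 0.0785) and 0.20 for MMA+FA against MMA (adjusted p = 0.0404), the last lost without MMA replicates 1 or 2 or any MMA+FA library (up to 0.16). Atp5mg, the neighbouring subunit g, fell with FA by 0.28 (adjusted p = 0.0258) and Atp5pd, of the peripheral stalk, by 0.16 (adjusted p = 0.0411), neither of which held under median-ratio scaling (0.0534 and 0.151).

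The presence of FA was compared with its absence without MMA (FA against control) and with it (MMA+FA against MMA), in 2 comparisons that share no library. FA was associated with a lower mean in both for 44 of the 83 members, among them Cox6a2, Atp5if1 and Ndufs1. For 26 members the mean was lower with FA alone and higher when FA was added to MMA, among them Cox5a, Uqcrh, Cox7a2 and Ndufs5-ps2. It was higher in both for 9, including Ndufa8 and Atp5mf, and higher without and lower with MMA for 4. Of all tested genes 62.3% had a lower mean in FA against control and 61.6% in MMA+FA against MMA, and their share lower in both was not counted. These signs are those of the deposited TPM. Under median-ratio scaling the members' median was -0.05 in FA against control and 0.03 in MMA+FA against MMA, so the split depends on the scaling. When FA was added to MMA, 4 members rose (4.19% of all tested genes were called higher) and 2 fell (9.53% were called lower). Those higher were Ndufa8, Atp5mf, Ndufs5-ps2 and Ndufv3-ps1 and those lower Ndufs6 and Cox6a2. Under median-ratio scaling 6 were called higher (beside 6.39% of all genes) and 0 lower (beside 6.19%), and in the deposited scale 14 members had an unadjusted p under 0.05. All 6 calls were lost without at least 1 library, and without MMA replicate 1, MMA replicate 2 or MMA+FA replicate 1 no member was called in either direction in limma. Of all tested genes 2.14% to 2.50% were called higher and 4.74% to 6.86% lower in these fits.

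When MMA was added to FA, 9 members rose, 10.8% of them (1.6% of all tested genes were called higher), and none fell in limma (8.9% were called lower), with 30 members at an unadjusted p under 0.05. The 9 were Ndufa2, Ndufa3, Ndufa8, Ndufb6 and Ndufs5-ps2 of complex I, Uqcrh, and Cox5a, Cox5b and Cox7a2 of complex IV. Means were higher with MMA+FA than with FA for 62 of the 83 members, while 70.3% of all tested genes had a lower mean. The members' median difference was 0.08, that of all tested genes -0.07. Under median-ratio scaling all 9 remained called, and the count was 19, or 22.9%, beside 3.43% of all genes, with 0 lower beside 2.46%. Ndufa3 and Ndufs5-ps2 held without any 1 library. Leaving out FA replicates 1, 2 and 3 in turn gave counts of 3, 23 and 2, and leaving out MMA+FA replicates 1, 2 and 3 gave 5, 2 and 2. In the same fits 63, 328 and 79, and 131, 80 and 44, of all 12263 genes were called higher. A fit of the FA and MMA+FA groups alone called none of the 83 members and 4 of all genes higher, and with no filter on low genes 3 members were called (3.61%, beside 0.48% of 20211 genes). This comparison shares the FA libraries with FA against control, so that a low FA group enters both.

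The interaction, the effect of FA with MMA less its effect without, was above 0 for 64 of the 83 members, with a median of 0.10, beside 0.01 for all tested genes, of which 48.6% were below 0. It was called for 2 members, both higher (0.938% of all tested genes were called higher and 1.47% lower), Ndufs5-ps2 and Ndufv3-ps1, and 17 members had an unadjusted p under 0.05. The median-ratio scale gave 1 call, Ndufs5-ps2 (1.04% of all genes were called higher and 1.62% lower). Without FA replicate 2 the count was 8 (9.64%, beside 1.61% of all genes called higher). With any other library left out it was 1 or 2 (1.20% or 2.41%, beside 0.277% to 1.17% of all genes).

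**Figure D4:**
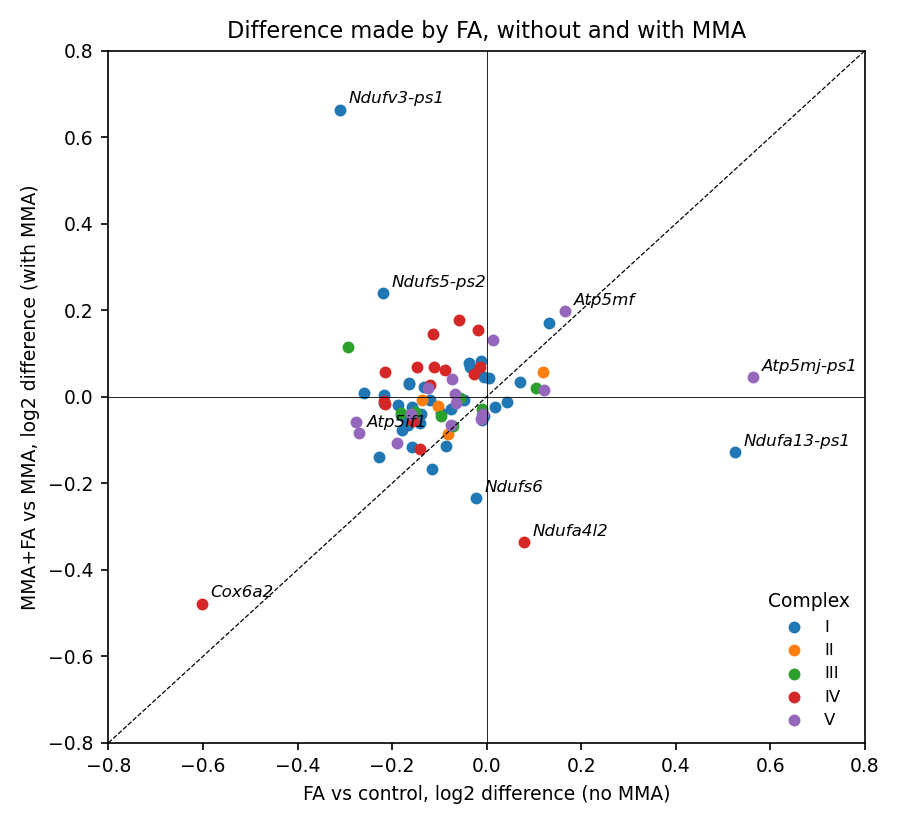
Difference made by FA without MMA (horizontal, FA against control) and with MMA (vertical, MMA+FA against MMA), on the log2(TPM + 1) scale, 1 point per member coloured by complex, with Atp5me and Atp5mk left out. Most points lie left of 0 and above the dashed line of equal differences, 64 of the 83 members having an interaction above 0.

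Both members with a called interaction are loci named as copies of a complex I gene. Ndufs5-ps2 is named after Ndufs5, an accessory subunit, and the table lists it as protein coding. It was at 164, 149 and 149 TPM in control, 143, 141 and 149 with MMA, 125, 144 and 128 with FA, and 176, 166 and 169 with MMA+FA. MMA+FA lay above all other libraries and FA below control. The interaction was 0.46 (SE 0.0793, adjusted p = 0.0150) and held in all 12 fits with 1 library left out, at up to adjusted p = 0.0482. At the Ndufs5 locus itself the interaction was 0.19 (adjusted p = 0.353). Ndufs5-ps2 held 52.2% to 59.7% of the TPM of the pair, and the sum of both loci was 277 ± 10.3 TPM in control (mean ± SD, n = 3), 266 ± 6.29 in the MMA group, 242 ± 19.8 in the FA group and 295 ± 1.98 in the MMA+FA group. Reads of near-identical copies may be split between loci by the counting, so values of a single locus of such a pair are uncertain.

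Ndufv3-ps1 was at 48.9, 79.4 and 62.4 TPM in control, 39.5, 40.5 and 52.3 with MMA, 45.5, 53.3 and 52.1 with FA, and 80.1, 72.8 and 58.6 with MMA+FA. Control overlapped every other group, and MMA+FA lay above MMA and FA. The interaction was 0.97 (SE 0.229, adjusted p = 0.0485), called in only 3 of 12 fits with 1 library left out (up to 0.123) and not under median-ratio scaling (0.0528). Its share of the pair with Ndufv3, a flavoprotein-module subunit, ran from 38.2% to 55.5%. MMA against control, -0.50 (adjusted p = 0.0464), overlapped between groups and was lost without control replicates 2 or 3 and MMA replicates 1 or 2 (up to 0.156).

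The members with the widest range over the 12 libraries were Atp5mk, Atp5me and Ndufa13-ps1. Atp5mk, a small membrane subunit of the synthase, was at 0 in 8 of 12 libraries, including all 3 FA libraries, and at 292, 105, 20.4 and 162 TPM in control replicate 2, MMA replicates 1 and 2 and MMA+FA replicate 3. Its copy Atp5mk-ps2 held at least 78.2% of the pair's TPM, at 944 to 1115 TPM. Atp5me, the subunit e, was at 40.4, 24.9 and 17.2 TPM in control, 0, 16.9 and 0 with MMA, 0, 23.1 and 72.1 with FA, and 0, 52.2 and 0 with MMA+FA, so that libraries of a group differed more than groups did. Ndufa13-ps1, named as a copy of a complex I gene, lay between 0.60 and 3.81 TPM. Genes of these complexes listed at 0 in all libraries included Uqcrb, whose copy Uqcrbl1 was at 198 TPM, Ndufb2 and Atp5f1e. Atp5mc1, a c-ring gene, and Uqcr11 are annotated as long noncoding RNA in the table, at 86.5 and 15.4 TPM, and Ndufs6-ps1, annotated as a pseudogene, stood at 99.4 TPM, so none of the 3 is a member.

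**Figure D5:**
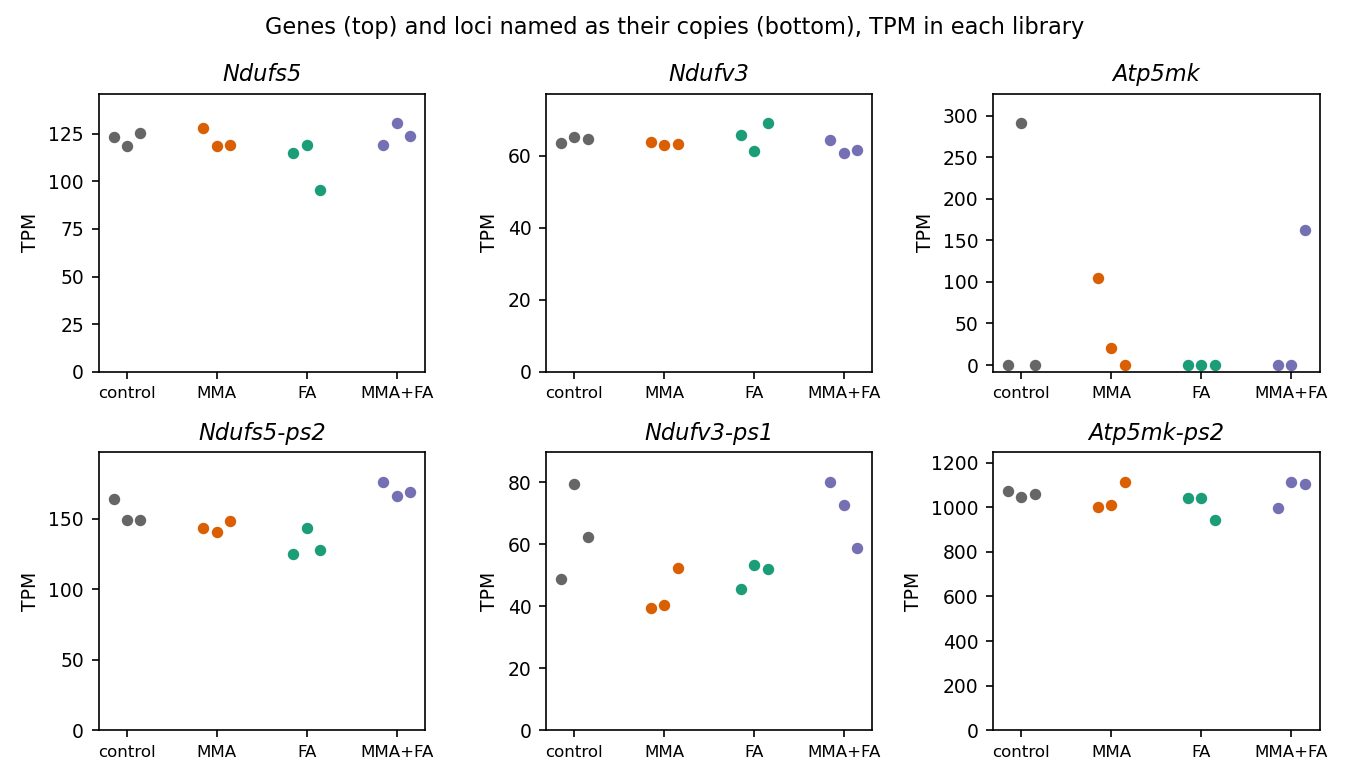
TPM in each library for Ndufs5, Ndufv3 and Atp5mk (top) and the loci named as their copies (bottom), with axes from 0. Ndufs5-ps2 lies highest with MMA+FA (166 to 176 TPM), and Atp5mk is at 0 in 8 of the 12 libraries while its copy stays between 944 and 1115 TPM.

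Other genes of the pathway were counted from lists written from general knowledge. Of the 13 subunits encoded by mitochondrial DNA, 6 were called higher with MMA (median difference 0.25), 1 with FA (-0.03) and 6 with MMA+FA (0.26), and none lower in limma in these 3 comparisons. Of all tested genes 3.85%, 3.67% and 6.67% were called higher, with medians of -0.07, -0.05 and -0.12. Under median-ratio scaling 6, 1 and 9 of the 13 were called higher and 0 lower. The 13 genes made up 9.34% to 9.87% of TPM in control, 10.3% to 11.4% with MMA, 8.78% to 10.4% with FA and 10.1% to 11.1% with MMA+FA. Assembly factors, which build the complexes without being part of them, were called lower with MMA+FA in 14 of 54 cases (25.9%, below the 32.6% of all tested genes): 4 of 16 for complex I, 3 of 3 for complex II, 2 of 9 for complex III, 4 of 19 for complex IV with 1 higher, and 1 of 7 for complex V. Under median-ratio scaling 5 of the 54 were called higher and 4 lower, beside 15.5% and 13.9% of all genes. Sdhaf1, which helps fit iron-sulfur clusters into Sdhb, fell by 0.35 (adjusted p = 0.000138), and by 0.22 under median-ratio scaling (adjusted p = 0.00244). With FA, 7 of the 54 assembly factors were called lower (13.0%, beside 8.7% of all genes) and 0 higher (beside 3.67%). Under median-ratio scaling 2 were called lower and 1 higher with FA, beside 3.88% and 5.78%. Ndufaf5, a complex I assembly factor, fell by 0.29 with FA and 0.33 with MMA+FA (adjusted p = 0.00886 and 0.000573), and Pet100, needed for complex IV, fell by 0.36 with FA (adjusted p = 0.00701). Of 18 electron carriers and nearby mitochondrial proteins, 3 fell and 1 rose with FA, beside 8.7% and 3.67% of all genes. Ndufab1, the acyl carrier protein bound to complex I, had the smallest p with FA (fell by 0.26, limma adjusted p = 0.00701). With MMA+FA 4 fell, beside 32.6% of all genes called lower, and with MMA 1 rose (Etfb), beside 3.85% called higher. Under median-ratio scaling 2 were called higher and 1 lower with FA, beside 5.78% and 3.88% of all genes. The numbers were the same with MMA+FA, beside 15.5% and 13.9%.

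Of 14 tested regulators of nuclear respiratory genes, 3 fell and 1 rose with MMA, 2 fell with FA and 7 fell with MMA+FA, where the list's median was -0.19 beside -0.12 for all genes. The shares of all tested genes called lower were 16.5%, 8.7% and 32.6%, and 3.85% were called higher with MMA. Under median-ratio scaling 1, 1 and 3 of the 14 were called lower, beside 6.91%, 3.88% and 13.9% of all genes. Pprc1, a coactivator of NRF1, fell from 31.1 ± 1.39 to 23.4 ± 1.19 TPM with MMA (log2 difference -0.39, adjusted p = 0.00320). Gabpb1, the partner of the ETS factor GABPA, fell by 0.40 with MMA+FA (adjusted p = 0.000392), and by 0.28 under median-ratio scaling (adjusted p = 0.00344). Nrf1 fell by 0.27 when FA was added to MMA (adjusted p = 0.00331).

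Over the 6 comparisons 29 of the 83 members were called at least once, with 47 calls in all, and 54 members in none. Of the 47 calls, 11 held without any 1 library and 28 held in direction and call under median-ratio scaling. The calls that did both were those of Cox5b and Atp5if1 with FA, of Ndufa8, Cox6a2, Atp5f1a and Atp5mf with MMA+FA against control, of Ndufa3 and Ndufs5-ps2 with MMA+FA against FA, and the interaction at Ndufs5-ps2.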

How the data were processed

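RNA was measured in 12 libraries of H9c2 cells, 4 groups of 3. Per the labels, TRIzol was used to isolate RNA for a stranded mRNA library kit. Per the submitters' processing notes, fastp and HISAT2 and the build mRatBN7.2 were used, with versions, settings and annotation not given in the sources used here. Each deposited value is a gene's TPM as the authors computed it, RSEM being named in the title of the file alone. All 12 value columns were used. Neither counts nor depth are known, so no counting interval is given.

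From these values, the 12263 genes averaging 1 TPM or more were fitted as log2(TPM + 1) in limma 3.58.1 (R 4.3.3, package data.table, version 1.17.8) on all 12 libraries, each group having its own mean, with a mean-variance trend. P-values were adjusted by Benjamini-Hochberg over all tested genes and called under 0.05. The script was tested on simulated data. An exact permutation of 3 against 3 libraries cannot go below p = 0.1, so limma alone was used. Comparisons share control, MMA or FA libraries. Alternatives were median-ratio scaling, TPM without mitochondrially encoded genes, a pseudocount of 0.1, no filter, no trend, a replicate block, only the groups compared, each library left out and, added after seeing the data, only loci with a symbol of their own.

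The members and lists were chosen with earlier results of these data known. Values per library are given for called members with the smallest p and no overlap, up to 3 per direction and comparison, members called in the interaction, the most abundant member of each complex, complex IV isoform families, and the 3 members with the largest and smallest range, of which 1 is not reported here. Uqcrh and Ndufb6 were added after their values were seen. Promoter windows came from RefSeq (GRCr8), matched by symbol, with no coordinates moved between builds. Figures were drawn with matplotlib 3.10.9 in Python 3.11.15 with pandas 2.3.3.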

Additional observations from a re-analysis of the deposited data

Results flagged for a closer look

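The effect of FA differed with and without MMA at 2 members, both loci named as copies, by the limma test of the interaction. At Ndufs5-ps2 the interaction was 0.46 on the log2(TPM + 1) scale (SE 0.0793, adjusted p = 0.0150), FA being lower than control by 0.22 (difference -0.22) and MMA+FA higher than MMA by 0.24. At Ndufv3-ps1 it was 0.97 (SE 0.229, adjusted p = 0.0485), the difference made by FA being 0.66 with MMA, and 9 of the 12 fits with 1 library left out did not call it.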

How the results depend on the processing

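Counts of called members moved with most settings. Median-ratio scaling gave 9 higher and 0 lower for MMA against control, 4 and 3 for FA, 25 and 1 for MMA+FA, 6 and 0 for MMA+FA against MMA, 19 higher against FA and 1 in the interaction. TPM without mitochondrially encoded genes gave 6 and 0 for MMA, 1 higher and 11 lower for FA, and 11 and 3 for MMA+FA against control. Of 12349 genes 559 and 1590, 475 and 961, and 941 and 3562 were called higher and lower in these fits. With no filter the counts were 0 lower for MMA, 6 lower for FA, 3 lower for MMA+FA, 2 higher and 0 lower against MMA, 3 higher against FA and 1 in the interaction. With no trend the members called were 0 lower for MMA, 3 lower for MMA+FA, 2 higher and 1 lower against MMA, 5 higher against FA and 1 in the interaction. Of 12263 genes 1953, 3947, 460, 1088, 150 and 91 were called in those directions, in that order. Fits of only the groups compared gave 5 higher for MMA, 3 lower for FA, 11 higher for MMA+FA, 2 and 1 against MMA and 0 higher against FA (4 of all genes were called higher there, and 2746 had an unadjusted p under 0.05). In the other fits 619, 409, 878, 457 and 932 of 12263 genes were called in those directions, in that order. Loci with a symbol of their own, an alternative added after seeing the data, gave 0 lower for MMA, 2 higher for MMA+FA against MMA and 0 in the interaction, since the copies were left out. Leaving out 1 library gave 0 to 3 higher and 0 to 1 lower for MMA, 0 to 3 and 2 to 32 for FA, 3 to 9 and 3 to 6 for MMA+FA, 0 to 5 and 0 to 2 against MMA, 2 to 23 higher against FA, and 1 to 8 in the interaction. With the replicate block the counts were 3 and 1, 0 and 13, 7 and 5, 3 and 2, 6 and 0, and 1 and 0, in the same order. Of 12263 genes 416 and 1782, 421 and 879, 798 and 3793, 484 and 1031, 146 and 820, and 83 and 131 were called there. Replicate numbers did not pair the libraries: over 18 pairs the correlation of deviations ran from -0.12 to 0.11, 1 pair was over 0.1, and 2 of 12 libraries correlated best with their own number.
Summed TPM under median-ratio scaling moved by over 1 SD for complex I to 5330.2 (control), 5587 (MMA) and 5797 (MMA+FA), for complex II to 423 (control), 411 (FA) and 447 (MMA+FA), for complex III to 2126 (control) and 2219.7 (MMA+FA), for complex IV to 5584 (control) and 6046 (MMA+FA), for complex V to 6424 (control), 6766 (MMA) and 7008 (MMA+FA), and for all members to 19888 (control), 20667 (MMA) and 21517 (MMA+FA). Without mitochondrially encoded genes the sums, for control, MMA, FA and MMA+FA in turn, were 6166, 6202, 5755 and 6225 for complex I, 489.6, 486, 459 and 479.7 for complex II, 2459.6, 2429.6, 2291 and 2384 for complex III, 6459, 6314, 5934 and 6492 for complex IV, 7429, 7510.5, 7140.3 and 7527 for complex V, and 23003, 22942, 21579 and 23109 for all members.
For single members, 1374 values kept direction and call, 125 gained a call, 255 lost one and 15 changed sign, all 15 with a difference of at most 0.12 after it. In MMA+FA against control, median-ratio scaling gave Sdhb 0.0055, Ndufs7 0.0035 and Ndufa10l1 (ENSRNOG00000016470) 0.12, and TPM without mitochondrially encoded genes gave Ndufa10l1 0.010. Leaving out 1 library gave, there, -0.037 to 0.013 for that Ndufa10l1 locus, -0.035 to 0.025 for Ndufb8, -0.015 to 0.061 for Cox4i1 and -0.013 to 0.027 for Ndufv1, and -0.0093 to 0.18 for Ndufa5 in MMA+FA against FA. Depth limits low members most: no count stands behind values such as those of Cox7a1 and Ndufa4l2. The cause of these moves was not tested.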
